A study of Homo sapiens with 12 samples.

Results

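The genes described here are 10 genes of the cell-cell junctions of epithelia, taken by name from the 12 gene count tables of the series: EPCAM, CLDN1, CLDN3, CLDN4, CLDN7, OCLN, TJP1, CRB3, DSP and JUP. Each name matched 1 row, so that 10 of the 60106 genes in the tables were followed. RNA was sequenced from 2 established human prostate carcinoma lines, PC3 and VCaP, each given siRNA against the transcription factor FOXA1 (siFOXA1) or an siRNA without a target (NSI, non-targeting), with 3 libraries per group. PC3 cells (NSI and siFOXA1 alike) received 20 nM siRNA, grew in RPMI and gave polyA libraries made with the TruSeq stranded mRNA kit. VCaP cells (NSI and siFOXA1 alike) received 40 nM siRNA, grew in DMEM and gave total RNA libraries made with the TruSeq total RNA kit. All 4 groups carried siRNA for 72 h before lysis, and no untransfected cells were among the samples. The labels do not say how many siRNA sequences were used, and each line is a single carcinoma line. Line, dose, medium and kit changed together, so levels in PC3 and VCaP are set side by side only and their causes cannot be told apart.

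Epithelial cells are joined by tight junctions near their upper edge and by desmosomes along their sides. In the tight junction, claudins and occludin span the membrane and are tied to the actin skeleton through scaffold proteins such as ZO-1. In the desmosome, cadherins are tied through plakoglobin and plakophilins to desmoplakin, which holds the keratin filaments. CLDN1, CLDN3, CLDN4 and CLDN7 encode claudins, OCLN encodes occludin, TJP1 encodes ZO-1 and CRB3 encodes an apical membrane protein of the Crumbs polarity complex. DSP encodes desmoplakin, JUP encodes plakoglobin and EPCAM encodes an epithelial adhesion protein that is known to bind claudin-7. FOXA1 is a forkhead factor of luminal prostate cells that can bind closed chromatin and open it for other factors.

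The promoters of 9 of the 10 genes were matched in the RefSeq table (GRCh38.p14), and EPCAM had no entry in it. The letters CAGGTG, which read CACCTG when they stand on the opposite strand, are an E-box known as a target of the repressors SNAI1, SNAI2, ZEB1 and ZEB2, which are known to repress junction genes. They were found in the 250 bases before the start of 4 of the 9 genes, against 17.1% of 15843 promoters of protein-coding genes of the same length. CRB3 held 5 matches, DSP held 2, and OCLN and TJP1 held 1 each. At least 2 matches were found in 2.36% of all promoters, and at least 5 in 6 promoters. The 4 sequences are shown because they hold these matches and because 2 of the genes rose and 2 fell in VCaP. They lie at chr19:6464021-6464270 on the plus strand (CRB3), chr5:69492297-69492546 on the plus strand (OCLN), chr15:29969050-29969299 on the minus strand (TJP1) and chr6:7541421-7541670 on the plus strand (DSP). Each is written 5′ to 3′ along the gene's own strand and ends at the base before the start, with the E-box letters in capitals.
CRB3: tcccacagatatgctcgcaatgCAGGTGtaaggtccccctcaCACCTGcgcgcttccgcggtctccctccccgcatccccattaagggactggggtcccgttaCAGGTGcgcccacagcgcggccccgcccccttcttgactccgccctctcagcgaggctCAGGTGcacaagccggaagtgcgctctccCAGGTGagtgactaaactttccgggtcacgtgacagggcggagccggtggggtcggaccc
OCLN: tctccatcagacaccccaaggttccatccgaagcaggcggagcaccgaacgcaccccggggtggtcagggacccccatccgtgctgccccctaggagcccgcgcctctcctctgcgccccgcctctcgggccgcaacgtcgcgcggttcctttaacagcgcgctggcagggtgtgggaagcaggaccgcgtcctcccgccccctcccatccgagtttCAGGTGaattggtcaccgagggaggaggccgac
TJP1: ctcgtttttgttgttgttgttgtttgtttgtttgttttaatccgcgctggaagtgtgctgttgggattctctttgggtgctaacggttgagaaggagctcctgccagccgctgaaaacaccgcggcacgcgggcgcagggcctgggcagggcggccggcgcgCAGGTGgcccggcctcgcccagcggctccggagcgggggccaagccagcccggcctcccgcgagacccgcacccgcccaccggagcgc
DSP: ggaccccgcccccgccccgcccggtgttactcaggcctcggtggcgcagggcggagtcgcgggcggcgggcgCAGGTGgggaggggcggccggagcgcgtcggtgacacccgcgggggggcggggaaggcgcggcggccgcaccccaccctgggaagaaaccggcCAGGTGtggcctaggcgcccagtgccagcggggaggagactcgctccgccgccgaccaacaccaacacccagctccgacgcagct
The forkhead letters TGTTTAC or TGTTTGC, read on both strands, were in none of the 9 promoters, against 4.68% of all promoters. Looser forms of these letters were not searched, so the tgtttgt repeats in the TJP1 sequence were not counted. The Grainyhead letters AACCGGTT, AACCAGTT or AACAGGTT were also in none, against 1.16%. The GC box GGGCGG was in 8 of 9, against 56.0%. None of the E-box matches shown shared a base with a GC box match. These are matches of letters in a short window, not measured sites.

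Library totals were 123140099 to 188226483 counts in PC3 and 48187047 to 59839211 in VCaP. Values below are CPM, counts scaled to a common library size with TMM factors. The siRNA target, FOXA1, was at 303, 244 and 266 CPM in the PC3 NSI libraries and at 163, 182 and 162 CPM in the PC3 siFOXA1 libraries. In VCaP, FOXA1 was at 458, 468 and 544 CPM under NSI and at 85.2, 73.6 and 83.0 CPM under siFOXA1, so its fall was larger in VCaP (log2 fold change −2.60) than in PC3 (−0.68), with a difference of −1.94 (SE 0.15, adjusted p = 2.98e-07). The epithelial keratins KRT8, KRT18 and KRT19 summed to 342 to 404 CPM in VCaP and 783 to 1131 CPM in PC3. KLK3, TMPRSS2 and ERG, known in VCaP, summed to at least 355 CPM in each VCaP library and to at most 0.445 CPM in each PC3 library. A stromal list (DCN, LUM, COL1A1, COL1A2 and COL3A1) summed to 23.7 to 27.98 CPM under NSI and 43.3 to 48.5 CPM under siFOXA1 in PC3, where 2 and then 3 of its 5 genes averaged at least 1 CPM. In VCaP it summed to 10.8 to 20.2 CPM under NSI and 1.45 to 7.47 CPM under siFOXA1, with 3 and then 1 of 5 genes at that level. A list of 5 blood and endothelial markers summed to 0.444 to 0.553 CPM under NSI and 0.882 to 0.993 CPM under siFOXA1 in PC3, and to 4.22 to 4.95 CPM and 1.75 to 2.26 CPM in VCaP. Mitochondrial genes took 3.02% to 3.29% of counts under NSI and 4.04% to 4.69% under siFOXA1 in VCaP, without overlap, and 13.1% to 15.7% of counts in PC3, with overlap. Both marker lists and, in VCaP, the mitochondrial share thus moved with the siRNA, and their part in the results below was not tested. Adjusted p-values are from edgeR's quasi-likelihood test with Benjamini-Hochberg adjustment over all genes tested in a fit, and a gene was called at an adjusted p under 0.05.

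In VCaP, the junction transcripts changed in both directions under FOXA1 siRNA. Claudins 1, 3 and 4, occludin, CRB3 and plakoglobin rose, ZO-1 and desmoplakin fell, and EPCAM and claudin-7 were not called. Of the 10 genes, all of which passed the filter on low counts, 6 were called higher and 2 lower. Over all 22939 genes tested in VCaP, 45.8% were called, 22.5% higher and 23.3% lower. The median log2 fold change was 0.45 over the 10 genes and 0.02 over all genes. The NSI and siFOXA1 libraries did not overlap for 8 of the 10 genes, against 55.9% of all genes. In RNA from whole cultures, a change in the share of cells with a transcript and a change in its amount per cell cannot be told apart.

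**Figure D1:**
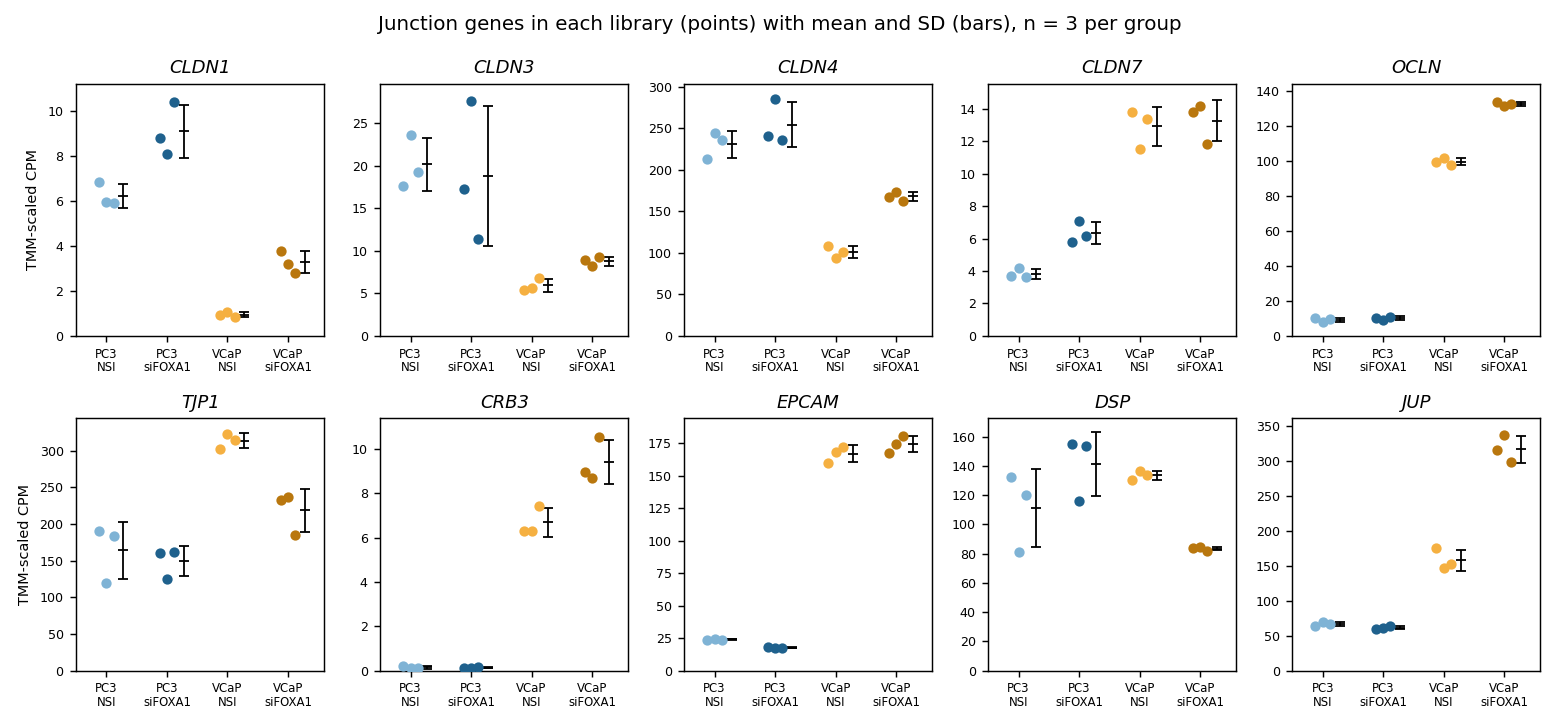
Level of each of the 10 junction genes in every library, in TMM-scaled CPM (vertical axis, from 0), for the 4 groups (horizontal axis). Points are libraries and bars are the mean and SD of 3. In VCaP, JUP rises from 147 to 175 CPM to 299 to 337 CPM while DSP falls from 130.4 to 137 CPM to 82.0 to 84.2 CPM.

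The 2 desmosome plaque genes moved in opposite directions in VCaP. JUP (chr17:39910856-39942950, minus strand, GRCh37) encodes plakoglobin, which links desmosomal cadherins to desmoplakin and can also serve in adherens junctions. It was at 175, 147 and 152 CPM under NSI and at 315, 337 and 299 CPM under siFOXA1. The lowest siFOXA1 library lay far above the highest NSI library, and the log2 fold change was 1.00 (SE 0.08, adjusted p = 1.46e-05). DSP (chr6:7541808-7586950, plus strand) was at 130.4, 137 and 134 CPM under NSI and at 83.7, 84.2 and 82.0 CPM under siFOXA1. Each group was tight and there was no overlap, and the fall was −0.68 (SE 0.06, adjusted p = 1.21e-05). Per exon length, the ratio of JUP to DSP was 3.55, 2.85 and 3.01 in the NSI libraries and 9.97, 10.6 and 9.64 in the siFOXA1 libraries of VCaP.

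The claudins, which seal the tight junction or set which ions pass it, did not respond alike in VCaP. CLDN4 (chr7:73242074-73247023, plus strand) was at 108, 94.3 and 101 CPM under NSI and at 168, 174 and 163 CPM under siFOXA1. All siFOXA1 libraries were above all NSI libraries, and the log2 value was 0.73 (SE 0.07, adjusted p = 2.85e-05). CLDN3 (chr7:73183327-73184600, minus strand) was at 5.39, 5.58 and 6.83 CPM under NSI and at 8.91, 8.19 and 9.25 CPM under siFOXA1. Its libraries were apart as well, at 0.56 (SE 0.11, adjusted p = 0.00275). This call was lost when all 12 libraries shared 1 fit (0.59, adjusted p = 0.0804, range over 17 alternatives 0.000162 to 0.0804). CLDN1 (chr3:190023490-190040264, minus strand) had the largest log2 change of the 10 genes in VCaP, from a low level. It was at 0.944, 1.06 and 0.851 CPM under NSI, which stood for 49 to 53 counts, and at 3.79, 3.20 and 2.82 CPM under siFOXA1. The log2 fold change of CLDN1 was 1.78 (SE 0.16, adjusted p = 2.36e-05). CLDN7 (chr17:7163222-7166532, minus strand) was at 13.8, 11.5 and 13.4 CPM under NSI and at 13.8, 14.2 and 11.8 CPM under siFOXA1. These libraries overlapped and CLDN7 was not called in VCaP (0.04, SE 0.10, adjusted p = 0.782).

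Occludin and its scaffold also parted in VCaP. OCLN (chr5:68788119-68853931, plus strand) was at 99.6, 101 and 97.8 CPM under NSI and at 134, 131 and 133 CPM under siFOXA1, up by 0.41 on the log2 scale (SE 0.05, adjusted p = 0.000248). TJP1 (chr15:29991571-30114706, minus strand), whose ZO-1 protein binds occludin and claudins from inside the cell, was at 302, 323 and 315 CPM under NSI and at 233, 237 and 185 CPM under siFOXA1. The third siFOXA1 library was the lowest for TJP1, and all 3 lay below NSI (−0.52, SE 0.10, adjusted p = 0.00187). The per-length ratio of OCLN to TJP1 was 0.471 ± 0.0151 (SD, n = 3) under NSI and 0.910 ± 0.131 under siFOXA1. CRB3 (chr19:6463788-6467232, plus strand) was at 6.32, 6.32 and 7.44 CPM under NSI and at 8.97, 8.71 and 10.5 CPM under siFOXA1. Its groups did not overlap, and its log2 fold change was 0.49 (SE 0.11, adjusted p = 0.00525). Of the genes whose promoters are printed above, CRB3 and OCLN were thus called higher and TJP1 and DSP lower.

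EPCAM (chr2:47572297-47614173, plus strand) was at 159.9, 169 and 172 CPM under NSI and at 168, 174 and 180.3 CPM under siFOXA1 in VCaP. The groups overlapped and the gene was not called (0.06, SE 0.06, adjusted p = 0.459). It was the gene with the highest level per exon length among the 10 in VCaP NSI cells, at 83.1 ± 3.18 CPM per kilobase (SD, n = 3). JUP followed at 42.7 ± 4.0, TJP1 at 32.3 ± 1.07 and CLDN4 at 24.1 ± 1.62. OCLN was at 15.2 ± 0.282, DSP at 13.6 ± 0.319 and CLDN7 at 6.25 ± 0.592. The lowest were CLDN3 at 4.66 ± 0.613, CRB3 at 4.20 ± 0.406 and CLDN1 at 0.273 ± 0.0294. Only CLDN3 and CRB3 overlapped as neighbours in this order. Under siFOXA1, JUP reached 85.6 ± 5.14 CPM per kilobase and overlapped EPCAM at 86.7 ± 3.09, and CLDN4 at 40.1 ± 1.32 lay above TJP1 at 22.5 ± 2.97.

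In PC3, EPCAM fell, and CLDN7 and CLDN1 rose. Of these, CLDN1 was called in VCaP too, and EPCAM and CLDN7 were not. Of the 10 genes, 2 were called higher and 1 lower. Over all 26478 genes tested in PC3, 27.7% were called, 13.9% higher and 13.9% lower, so the share among the 10 genes was near that over all genes. The median log2 fold change was 0.00 over the 10 genes, 5 above and 5 below 0, and −0.01 over all genes. The groups did not overlap for 4 of the 10 genes, against 45.1% of all genes. With the replicate number as a block, DSP was called as well, so that 3 genes were higher and 1 lower, and over all genes 42.8% were called, 19.7% higher and 23.1% lower.

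EPCAM in PC3 was at 23.8, 24.5 and 23.9 CPM under NSI and at 17.9, 17.6 and 17.3 CPM under siFOXA1. Both groups were tight and apart, and the log2 value was −0.45 (SE 0.08, adjusted p = 0.00384). CLDN7 was at 3.66, 4.17 and 3.65 CPM under NSI and at 5.81, 7.07 and 6.14 CPM under siFOXA1. All 3 siFOXA1 libraries were above NSI (0.73, SE 0.12, adjusted p = 0.00322), the opposite direction to EPCAM. Of the exon bases of CLDN7, 13.0% overlapped the same-strand gene RP1-4G17.5 and 1.84% overlapped ELP5, which runs the opposite way. Strand was not used in counting PC3. Over those bases the fragments of the genes cannot be told apart. CLDN1 was at 6.85, 5.97 and 5.90 CPM under NSI and at 8.80, 8.10 and 10.4 CPM under siFOXA1, and its groups did not overlap. Its log2 fold change was 0.55 (SE 0.13, adjusted p = 0.0131), and over 18 alternatives the adjusted p ran from 0.000716 to 0.0592. The CLDN1 call was lost without the third NSI library (0.50, adjusted p = 0.0592) and when a fold change beyond 1.2 was required (adjusted p = 0.0538).

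For 7 of the 10 genes the PC3 change was not called. JUP was at 64.5, 69.9 and 66.3 CPM under NSI and at 59.1, 61.7 and 63.9 CPM under siFOXA1, so that the groups were apart by a small step (−0.12, SE 0.08, adjusted p = 0.301). CLDN4 was at 213, 244 and 236 CPM under NSI and at 241, 286 and 236 CPM under siFOXA1, with overlap (0.14, SE 0.10, adjusted p = 0.351). OCLN was at 10.2, 8.13 and 9.52 CPM under NSI and at 10.2, 8.93 and 11.05 CPM under siFOXA1, also with overlap (0.11, SE 0.12, adjusted p = 0.524). CRB3 had 14 to 31 counts per library and lay between 0.101 and 0.21 CPM in all 6 libraries. At that depth its fold change has a wide error (−0.17, SE 0.38, adjusted p = 0.762).

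The remaining 3 genes carried a difference between replicate numbers in PC3. TJP1 was at 189.9, 119 and 184 CPM under NSI and at 160.4, 126 and 161 CPM under siFOXA1. DSP was at 132, 81.2 and 120.4 CPM under NSI and at 155, 116 and 153 CPM under siFOXA1. CLDN3 was at 17.6, 23.7 and 19.3 CPM under NSI and at 17.3, 27.7 and 11.4 CPM under siFOXA1. Replicate 2 was the lowest library of its group for TJP1 and DSP and the highest for CLDN3, under both siRNAs. Without a block, none of these genes was called in PC3. The log2 fold change was −0.14 (SE 0.18, adjusted p = 0.596) for TJP1, 0.35 (SE 0.18, adjusted p = 0.194) for DSP and −0.11 (SE 0.28, adjusted p = 0.799) for CLDN3. DSP was higher under siFOXA1 at each replicate number, and it was called with the replicate block (0.36, adjusted p = 0.00285) and without replicate 2 of both groups (0.33, adjusted p = 0.00391), where the range over 18 alternatives was 0.00285 to 0.424. TJP1 and CLDN3 were not called under the block (adjusted p = 0.223 and 0.365).

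**Figure D2:**
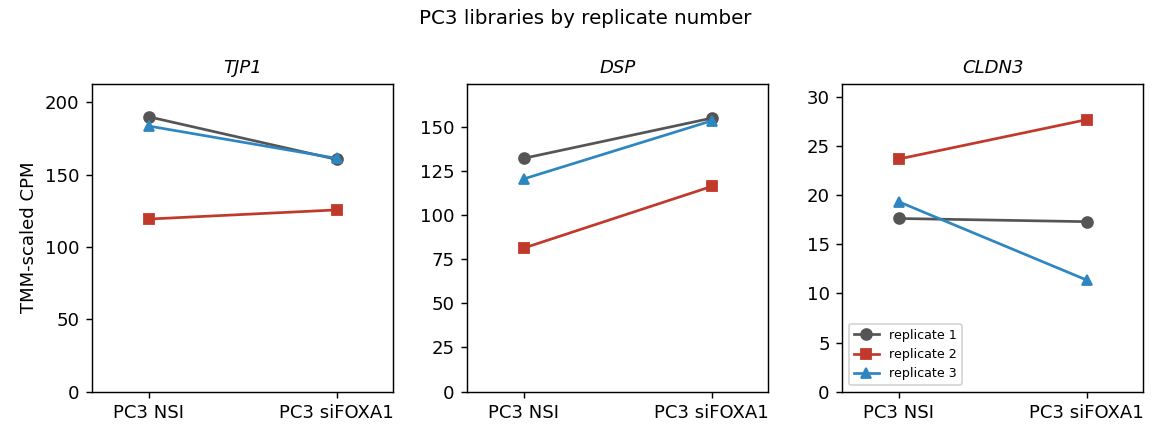
TJP1, DSP and CLDN3 in the 6 PC3 libraries, in TMM-scaled CPM (vertical axis, from 0), with a line joining the NSI and siFOXA1 libraries of the same replicate number. Replicate 2 lies apart in both groups, and DSP is higher under siFOXA1 at each number (132 to 155, 81.2 to 116 and 120.4 to 153 CPM).

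The order of levels per exon length in PC3 NSI cells was led by CLDN4, at 55.1 ± 3.86 CPM per kilobase (SD, n = 3). JUP at 18.0 ± 0.749, TJP1 at 16.9 ± 4.03 and CLDN3 at 15.9 ± 2.45 followed, each overlapping the next. EPCAM was at 12.0 ± 0.181 and DSP at 11.4 ± 2.72, again with overlap. CLDN7 at 1.85 ± 0.145 and CLDN1 at 1.79 ± 0.152 overlapped, OCLN was at 1.42 ± 0.164, and CRB3 was at 0.0926 ± 0.0355. CLDN4 made up most of the 4 claudins per exon length in each group. Its share was 73.9% ± 1.47 under NSI and 75.2% ± 3.93 under siFOXA1 in PC3, and 68.3% ± 1.53 and 73.8% ± 0.718 in VCaP. The share of CLDN7 was 17.7% ± 0.567 and 11.8% ± 0.819 in VCaP, and 2.49% ± 0.119 and 3.82% ± 0.318 in PC3.

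The response itself was compared between the lines with an interaction term over all 12 libraries, the VCaP log2 fold change minus that of PC3. It was called for 6 of the 10 genes, 4 with a more positive and 2 with a more negative change in VCaP. Over the 30450 genes tested, 22.1% were called, 11.1% in each direction. The median difference was 0.54 over the 10 genes and 0.05 over all genes. The difference was 1.22 for CLDN1 (SE 0.21, adjusted p = 0.000656), 1.11 for JUP (SE 0.12, adjusted p = 9.24e-06), 0.58 for CLDN4 (SE 0.13, adjusted p = 0.00395) and 0.50 for EPCAM (SE 0.10, adjusted p = 0.00231). For CLDN1, which was called higher in both lines, it is a larger rise on the log2 scale in VCaP, from a low level there. For EPCAM it is a fall in PC3 beside a change that was not called in VCaP. The difference was −0.70 for CLDN7 (SE 0.16, adjusted p = 0.00463), which rose in PC3 and was not called in VCaP. For DSP it was −1.05 (SE 0.21, adjusted p = 0.00207), with a fall in VCaP and a positive value in PC3.

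The other 4 genes did not pass the interaction test without a block. OCLN differed by 0.28 (SE 0.14, adjusted p = 0.173), CLDN3 by 0.66 (SE 0.32, adjusted p = 0.170), TJP1 by −0.40 (SE 0.22, adjusted p = 0.236) and CRB3 by 0.64 (SE 0.32, adjusted p = 0.179). With replicate number as a block within each line, 9 of the 10 genes were called, against 29.0% of all genes. This block pairs the VCaP libraries by number as well, although their numbers were not taken to pair them. OCLN (0.28, adjusted p = 0.0368), CLDN3 (0.74, adjusted p = 0.0163) and TJP1 (−0.42, adjusted p = 0.0161) joined the calls, and CRB3 did not (adjusted p = 0.142). Over 23 alternatives the adjusted p ran from 0.0368 to 0.578 for OCLN, from 0.00676 to 0.310 for CLDN3, from 0.0161 to 0.447 for TJP1 and from 0.0737 to 0.599 for CRB3. Without replicate 2 of both PC3 groups, CLDN3 (0.85, adjusted p = 0.0105) and TJP1 (−0.39, adjusted p = 0.0456) were called. CLDN3 was also called without the second PC3 siFOXA1 library alone (0.96, adjusted p = 0.00676).

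**Figure D3:**
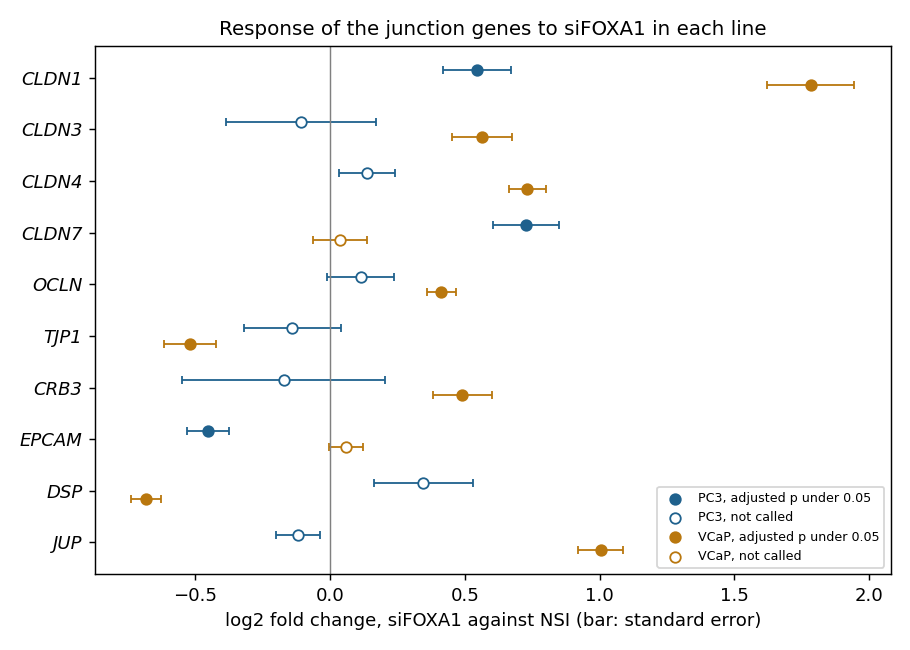
Log2 fold change of siFOXA1 against NSI (horizontal axis, bars are standard errors) for the 10 genes (vertical axis) in PC3 and VCaP, 3 libraries per group. Filled points are called at an adjusted p under 0.05. In VCaP, 8 of 10 are called, from −0.68 for DSP to 1.78 for CLDN1, and in PC3 3 of 10, from −0.45 for EPCAM to 0.73 for CLDN7. Of all genes tested, 45.8% were called in VCaP and 27.7% in PC3.

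The desmosome genes outside the 10 were called in both directions in VCaP, as were JUP and DSP. Of 9 tested, 3 were called higher and 5 lower (median log2 fold change −0.37), where 22.5% of all genes were called higher and 23.3% lower, and the counts of the lists that follow stand beside the same shares. Levels of these genes are the mean ± SD of 3 libraries. The desmosomal cadherin DSG2 fell from 137 ± 6.61 to 65.9 ± 11.1 CPM (−1.06, adjusted p = 5.44e-05) and DSC2 from 220.2 ± 8.96 to 125 ± 8.32 CPM (−0.82, adjusted p = 1.76e-05). The plakophilin PKP1, a plaque protein that binds desmoplakin, fell from 122 ± 11.5 to 30.6 ± 0.411 CPM (−2.00, adjusted p = 2.31e-07). PKP3 also fell (−0.43, adjusted p = 0.00154), whereas PKP2 was at −0.14 (adjusted p = 0.0933). On the other side, the cadherin DSC1 rose from 6.99 ± 1.69 to 49.0 ± 5.07 CPM (2.81, adjusted p = 1.55e-06) and periplakin, PPL, from 6.83 ± 0.957 to 18.9 ± 1.57 CPM (1.47, adjusted p = 8.11e-06). In PC3, 8 of these genes were tested, with 2 called higher and 1 lower, or 3 and 1 with the replicate block. Over all PC3 genes, 13.9% were called in each direction without the block, and 19.7% higher and 23.1% lower with it. The PC3 list counts that follow stand beside these shares. PKP1 fell in PC3 as well, from 551 ± 48.1 to 390.0 ± 32.8 CPM (−0.50, adjusted p = 0.00814), and DSC2 had a positive change (0.36, adjusted p = 0.0251). The DSC2 call in PC3 was lost without the third NSI, the first siFOXA1 or the third siFOXA1 library (adjusted p = 0.109, 0.0869 and 0.0931) and for a fold change beyond 1.2 (0.203).

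**Figure D4:**
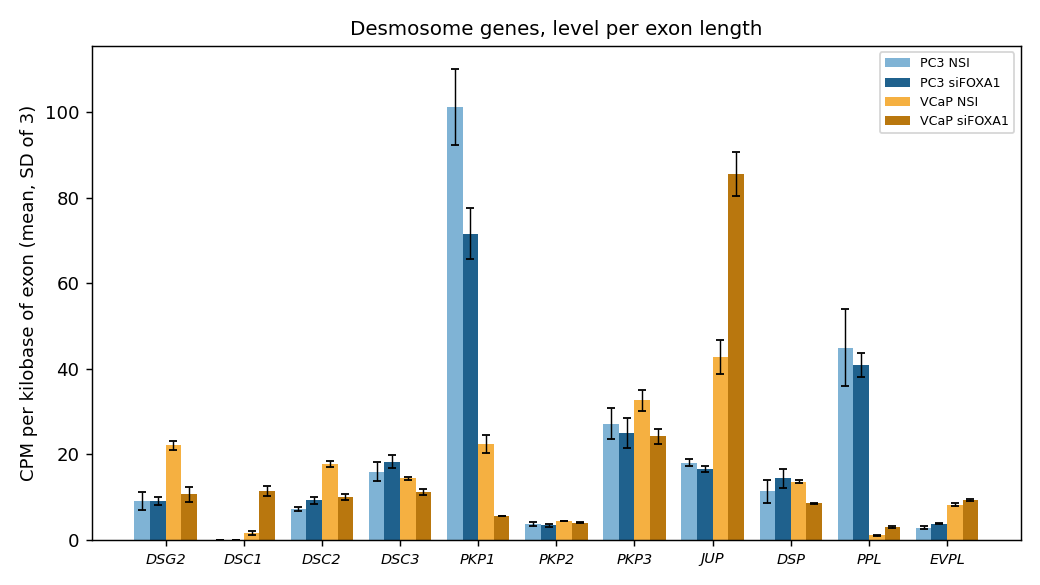
Level per exon length (vertical axis, CPM per kilobase, bars from 0, mean and SD of 3 libraries) of 11 desmosome genes in the 4 groups. In VCaP, JUP rises from 42.7 to 85.6 and DSC1 from 1.64 to 11.5, while PKP1 falls from 22.4 to 5.62 and DSG2 from 22.1 to 10.6.

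Among 9 tight junction scaffolds other than TJP1, 4 were called higher and 1 lower in VCaP. TJP3, which encodes ZO-3, rose from 4.29 ± 0.422 to 10.3 ± 1.26 CPM (1.27, adjusted p = 3.21e-05) while TJP1 fell. In PC3, 1 of the 9 was called higher and 2 lower, or 4 and 2 with the replicate block. Of 9 other membrane proteins of the tight junction, 5 rose and 2 fell in VCaP, and 2 rose and 1 fell in PC3. IGSF5 went up in PC3 (1.49, adjusted p = 0.0225) and down in VCaP (−0.85, adjusted p = 0.00377), but in PC3 it had a mean of 0.0542 CPM under NSI and 0.157 CPM under siFOXA1, and that call was lost without the first NSI library or any 1 of the siFOXA1 libraries (adjusted p = 0.0590, 0.0552, 0.0665 and 0.0663). Of the other claudins, 6 passed the filter in VCaP, with 1 called higher and 3 lower, and 15 in PC3, with 1 higher and 2 lower.

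Polarity and adherens junction genes gave counts in both directions too. Of 12 polarity genes tested in each line, 2 were called higher and 5 lower in VCaP, and 2 higher and 1 lower in PC3, or 3 and 3 with the replicate block. LIN7A, a partner of the Crumbs complex, rose from 1.27 ± 0.105 to 3.36 ± 0.291 CPM in PC3 (1.40, adjusted p = 0.00021) and fell from 75.6 ± 2.57 to 15.8 ± 1.28 CPM in VCaP (−2.26, adjusted p = 9.82e-08). Of 10 adherens junction genes, 3 were called higher and 3 lower in VCaP, and 1 in each direction in PC3, or 2 higher and 1 lower with the block. E-cadherin, CDH1, fell from 25.8 ± 3.86 to 16.0 ± 1.39 CPM in PC3 (−0.69, adjusted p = 0.00492) and was at 236 ± 2.57 and 252 ± 20.3 CPM in VCaP (0.09, adjusted p = 0.328). That is the pattern EPCAM showed, and the interaction was called for CDH1 at 0.77 (adjusted p = 0.0021). P-cadherin, CDH3, rose in PC3 (1.17, adjusted p = 6.26e-05) and, by less, in VCaP (0.59, adjusted p = 0.00922). NECTIN3 fell in VCaP (−1.45, adjusted p = 7.98e-06) with 0.01 in PC3 (adjusted p = 0.947). Over all 93 junction genes of these lists and the regulators below, 12 of 81 tested were called higher and 14 lower in PC3, and 25 of 71 higher and 23 lower in VCaP. Over all genes, 27.7% were called in PC3 and 45.8% in VCaP. With the replicate block, the PC3 list counts were 19 higher and 17 lower, where 42.8% of all genes were called. With single libraries left out, the number called in PC3 ran from 15 to 31 and the number called higher from 5 to 15. Without the first siFOXA1 library 5 were called higher, and without the third NSI or the third siFOXA1 library 7.

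**Figure D5:**
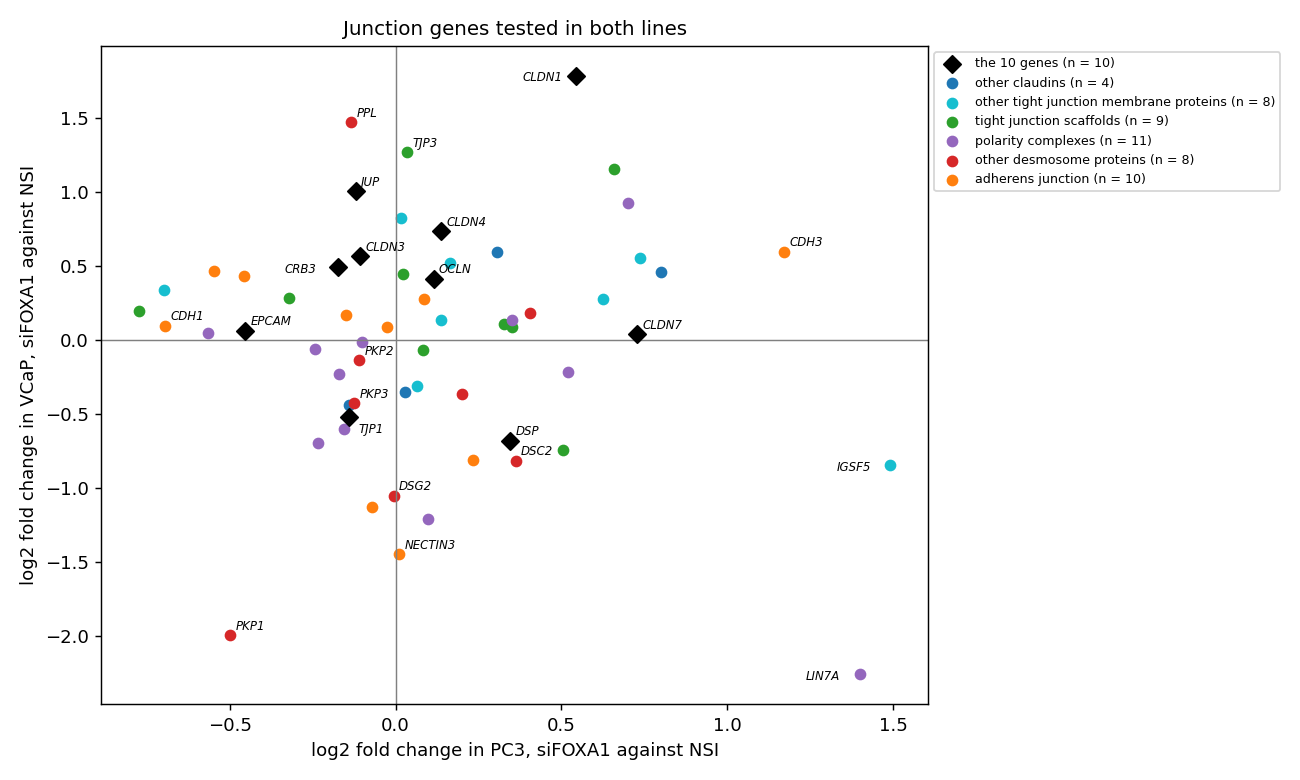
Log2 fold change of siFOXA1 against NSI in PC3 (horizontal axis) and VCaP (vertical axis) for the junction genes tested in both lines, 1 point per gene, with the 10 genes as black diamonds. CLDN1 lies above 0 on both axes (0.55 and 1.78), JUP is high in VCaP at 1.00, and LIN7A is at 1.40 in PC3 and −2.26 in VCaP.

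Of 8 epithelial transcription factors and 5 repressors known to act on junction genes, 3 were called higher and 5 lower in PC3 (12 tested), and 4 higher and 3 lower in VCaP (10 tested). GRHL2, a Grainyhead factor known to keep CLDN4 and CDH1 expressed, was at 334 ± 26.4 CPM in VCaP NSI libraries and fell to 221 ± 15.4 CPM under siFOXA1 (−0.59, adjusted p = 0.000328). CLDN4 rose in the same libraries. In PC3, GRHL2 was at 0.163 ± 0.0576 and 0.266 ± 0.0701 CPM (0.72, adjusted p = 0.147), and it was called with all 12 libraries in 1 fit (0.78, adjusted p = 0.0238), without the second NSI library (1.07, adjusted p = 0.0470) and without replicate 2 of both groups (1.16, adjusted p = 0.0357). The repressor ZEB1 was at 25.8 ± 5.49 CPM in PC3 NSI libraries and 39.6 ± 4.05 CPM under siFOXA1 (0.62, adjusted p = 0.0207), a call lost without the third NSI, the first siFOXA1 or the third siFOXA1 library (0.0525, 0.0576 and 0.0660). It had 1 to 6 counts per VCaP library and was not tested there. SNAI2, another repressor of this kind, had 2, 3 and 2 counts in the VCaP NSI libraries and 12, 29 and 33 under siFOXA1 (adjusted p = 0.000617), up to a mean of 0.481 CPM. Its fitted log2 value was 3.39. In PC3, SNAI2 fell from 71.2 ± 7.48 to 50.8 ± 2.72 CPM (−0.49, adjusted p = 0.0083). Of the other regulators, GRHL1 (−0.95, adjusted p = 0.00103) and ELF3 (−0.73, adjusted p = 0.000591) fell and EHF (1.62, adjusted p = 0.000154) rose in PC3. KLF5 fell in PC3 (−0.66, adjusted p = 0.00895) and fell in VCaP too (−0.72, adjusted p = 0.00529). The repressor ZEB2 rose in PC3 (0.98, adjusted p = 0.000511), called in all 18 alternatives, and SNAI1 was called lower there (−0.48, adjusted p = 0.0278) in 11 of 18. GRHL3 rose in VCaP (1.29, adjusted p = 0.00905). KLF5, ZEB2, SNAI1 and GRHL3 were named after their values were seen. In VCaP OVOL1 rose (0.71, adjusted p = 7.94e-05), OVOL2 fell (−0.57, adjusted p = 0.001) and EHF was called at 0.23 (adjusted p = 0.0372), a call lost without NSI replicate 1 or 3 or siFOXA1 replicate 1 or 2 (adjusted p = 0.128, 0.105, 0.140 and 0.0992).

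The gene whose log2 CPM most resembled that of each of the 10 was sought among junction genes and regulators with at least 1 CPM in each line, with each line centred on its own mean over 12 libraries. The highest Pearson r were those of DSP with the desmosomal cadherin DSC3 (0.964), OCLN with VCL (0.955), CLDN1 with cingulin, CGN (0.953), and EPCAM with GRHL1 (0.945). CLDN4 (0.939) and JUP (0.937) were both closest to TJP3. TJP1 was closest to PRKCI (0.932), CLDN7 to EHF (0.875), CLDN3 to SPINT2 (0.845) and CRB3 to VCL (0.736). These are descriptions over 58 or 59 candidate genes for each of the 10. The libraries share the siRNA contrast, which enters every r. CGN was called higher in PC3 (0.66, adjusted p = 0.00834) and also in VCaP (1.15, adjusted p = 1.28e-06), as CLDN1 was. DSC3 was called lower in VCaP (−0.37, adjusted p = 0.00145) and was not called in PC3 without the block (0.20, adjusted p = 0.250), as DSP was not. With the block DSC3 was called higher in PC3 (0.21, adjusted p = 0.0307), as DSP was. CGN and DSC3 were picked by r over these same libraries, so the likeness of their calls is in part fixed by that choice.

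The nearest protein-coding genes on each side of the 10 were examined, a look chosen after the values were seen. CLDN3 and CLDN4 lie 57474 bases apart on chromosome 7 and both rose in VCaP. ABHD11, on the far side of CLDN3, also rose there (0.50, adjusted p = 0.00108), while WBSCR27, next to CLDN4, was called lower (−0.37, adjusted p = 0.0494). P3H2, the neighbour of CLDN1, rose in both lines (0.69, adjusted p = 0.00146 in PC3, and 1.41, adjusted p = 3.77e-05 in VCaP), as CLDN1 did. MARVELD2, which encodes tricellulin and lies beside OCLN, fell in VCaP (−0.31, adjusted p = 0.00187) where OCLN rose. SNRNP48, 3482 bases from DSP, fell in VCaP with it (−0.86, adjusted p = 0.00031), and RIOK1 on its other side was called lower in VCaP (−0.24, adjusted p = 0.0471) and also in PC3 (−0.57, adjusted p = 0.00113). CALM2, next to EPCAM, was called lower in PC3 (−0.41, adjusted p = 0.0148), where EPCAM fell. In the annotation, 8 of the 10 genes shared no exon base with another gene. Of the bases of CRB3, 0.942% overlapped DENND1C on the other strand. RefSeq lists a pseudogene of OCLN, OCLNP1, so counts of OCLN are uncertain to the extent that fragments map to both.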

How the data were processed

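Expected counts per gene were deposited for the 12 libraries. The authors used featureCounts for these estimated counts, per the file headers, on GRCh37 with the GENCODE v28lift37 basic annotation, required both ends mapped and divided fragments shared by several places or genes. Per the file headers, strand was ignored for PC3 and used for VCaP. STAR 2.7.3a and Subread 2.0.0 are named in the submitters' processing notes. The exon length in each deposited table gave CPM per kilobase.

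Counts were rounded to whole numbers (54.8% to 75.2% of nonzero values were not whole) and fitted in R 4.3.3 with edgeR 4.0.16 (TMM, filterByExpr at its defaults, two-sided quasi-likelihood tests), each line on its own 6 libraries and the interaction on all 12. The standard error is the size of the log2 fold change divided by the square root of F. The fit was tested on simulated data. DESeq2 1.42.0 was among the alternatives.

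No label says that replicates were separate cultures, so p-values measure the spread between these libraries. No 2 libraries of a group agreed within sampling noise. Same-numbered NSI and siFOXA1 libraries of PC3 deviated together (correlations 0.445, 0.589 and 0.251). NSI 1 with siFOXA1 3 (0.346) and NSI 3 with siFOXA1 1 (0.237) did so too. Replicate 2 against other numbers was negative (−0.539 to −0.341). Deviations were taken from the group mean, so these correlations depend on one another and are not separate evidence on pairing. The numbers in the titles were taken to pair the PC3 libraries, but pairing of replicates 1 and 3 by number was not shown. The main PC3 fit held no block, so its calls do not use this pairing, and the block was fitted as an alternative. In VCaP (0.109, 0.0344 and 0.391, with 0.269 for NSI 1 and siFOXA1 2) the numbers were not taken to pair. The block was still fitted there as an alternative.

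The 10 genes, the context lists and the tests were chosen with earlier results of these data known. Context genes were named by rule: the 3 largest called changes in each direction in each fit, from genes averaging 1 CPM or more, and 13 fixed by name with those earlier results known. Not all of them are reported here. VCL, CGN, DSC3, PRKCI and SPINT2 are most-alike genes.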

Additional observations from a re-analysis of the deposited data

Results flagged for a closer look

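The response to FOXA1 siRNA differed between the lines, by the interaction test, for 6 of the 10 junction genes and for the other genes given here. Of all 30450 genes tested, 22.1% were called. Values are the VCaP log2 fold change minus that of PC3, from edgeR's quasi-likelihood test. Among the 10, the difference was positive for CLDN1 (1.22), JUP (1.11), CLDN4 (0.58) and EPCAM (0.50) and negative for DSP (−1.05) and CLDN7 (−0.70).

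Among desmosome genes, it was positive for PPL (1.59) and negative for PKP1 (−1.51), DSC2 (−1.20), DSG2 (−1.07) and DSC3 (−0.58). Among tight junction and polarity genes, it was positive for TJP3 (1.22), F11R (1.02), CXADR (0.79), LIN7C (0.59), MAGI1 (0.59) and CGN (0.48). It was negative for LIN7A (−3.68), IGSF5 (−2.34), PARD6G (−1.32), MAGI2 (−1.27), PARD6A (−0.75) and MPP5 (−0.48). Among adherens junction genes, it was 0.77 for CDH1, −0.59 for CDH3, −1.48 for NECTIN3, −1.08 for NECTIN1 and −1.06 for NECTIN2. Among regulators, it was 3.90 for SNAI2, 1.04 for GRHL1, 0.90 for ELF3, −1.35 for GRHL2 and −1.40 for EHF. SPINT2, a protease inhibitor, differed by 0.52 and FOXA1 itself by −1.94. SNAI2 averaged under 1 CPM in VCaP, and GRHL2, IGSF5 and CXADR averaged under 1 CPM in PC3. For these genes, the change in that line was measured at a low level. CGN was called in 19 of 23 alternatives, SPINT2 and LIN7C in 22, MPP5 in 18 and PARD6A in 15. F11R, LIN7C, MAGI1, MAGI2, PARD6A, PARD6G, MPP5, NECTIN1 and NECTIN2 were named after their values were seen. The call for CDH3 was lost without the first or second VCaP NSI library or the third VCaP siFOXA1 library (adjusted p = 0.0599, 0.0779 and 0.0516). Dose, medium, library kit, strand use and the size of the FOXA1 fall all changed with the line, and their parts in these differences cannot be told apart.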

How the results depend on the processing

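No log2 fold change of the 10 genes that was called turned its direction under any alternative. In VCaP, 6 genes were higher and 2 lower whichever library was left out, and under the replicate block. In PC3, the number called higher was 1 when a fold change beyond 1.2 was required and 1 to 2 with single libraries left out, with CLDN1 lost without the third NSI library, and 3 with the replicate block. Over all PC3 genes, 7344 were called, against 11333 with the replicate block, 4196 for a fold change beyond 1.2 and 3963 to 7628 with single libraries left out. The low values came without the first siFOXA1 library (3963) and without the third NSI library (4738). In VCaP, 10500 genes were called, against 6513 for a fold change beyond 1.2 and 11474 with the replicate block. Interaction calls among the 10 genes ran from 6 to 9. Of all genes, 22.1% were called without the block and 29.0% with it. Leaving out replicate 2 of both PC3 groups was chosen after seeing the data. The block changed no other call of the 10 genes in the separate lines than that of DSP in PC3. Counts of 14 to 31 limit CRB3 in PC3, and 49 to 53 limit CLDN1 in VCaP NSI cells.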

Other observations

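3 other junction genes had values that stood out and were chosen after their values were seen. CTNNA1, which encodes the alpha-catenin that ties E-cadherin to actin, had 1.82, 0.876 and 1.54 CPM in the PC3 NSI libraries and 1.06, 0.811 and 1.21 CPM under siFOXA1. In VCaP it was at 56.7, 58.1 and 55.0 CPM under NSI and at 64.8, 56.3 and 108 CPM under siFOXA1, and the third siFOXA1 library, which was also the lowest for TJP1, stood apart. CTNNA1 was not called in either line (adjusted p = 0.247 in PC3, 0.107 in VCaP, edgeR). CXADR, a tight junction adhesion protein and virus receptor, was higher under siFOXA1 in VCaP (128 ± 8.44 CPM for NSI and 227 ± 15.5 CPM for siFOXA1, SD, n = 3 libraries, log2 fold change 0.83, adjusted p = 2.77e-05), while in PC3 it was at 0.656 ± 0.0542 and 0.664 ± 0.0403 CPM. CLDN8 fell in VCaP, from 44.7, 40.97 and 34.1 CPM under NSI to 26.5, 22.6 and 20.2 CPM under siFOXA1 (−0.79, adjusted p = 0.000536), where CLDN1, CLDN3 and CLDN4 rose. It had 0 to 3 counts per PC3 library and was not tested there.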
